A study of Mus musculus with 4 samples.

Results

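Cell division depends on genes that are transcribed in a fixed order. D-type cyclins act while a cell commits to divide, the Mcm helicase and the enzymes of nucleotide synthesis act as DNA is copied, and Cdk1 with the B-type cyclins drives mitosis, in which motor proteins and kinetochore proteins move the chromosomes. In the adult brain most neurons have left the cycle for good, whereas progenitors of neurons and glia, and microglia to some extent, can still divide. The 35 genes described here span these steps and were taken by name from the 27487 genes listed in the 4 libraries, and all 35 were listed in each library. They fell into 6 role groups: spindle, kinetochore and chromosome proteins (11 genes), mitotic cyclins with *Cdk1* and the Cks proteins (6), D-type cyclins (3), DNA synthesis (5), the replicative helicase (6), and chromatin and cytoskeleton proteins (4).

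Single-cell RNA was measured by Drop-seq, which captures transcripts of single cells on barcoded beads in droplets and counts them by unique molecular identifiers (UMIs). The libraries came from dissected cortex of mice aged 24 weeks, either heterozygous Tg2576 mice (B6;SJL-Tg(APPSWE)2576Kha), which overexpress human APP with the Swedish mutation and serve as a model of Alzheimer's disease, or their wild-type littermates. Each of the 4 libraries (female wild-type, female Tg2576, male wild-type, male Tg2576) pooled 9 mice, 36 mice in all, after perfusion with PBS and enzymatic dissociation of the tissue. No library had a replicate within its sex and genotype, so the intervals given below cover counting error only.

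After filtering, 4835 cells were kept (1044, 1249, 1010 and 1532 in the order above), with 1593675 to 1758582 UMIs per library and medians of 909 to 1331.5 UMIs per cell. The kept cells formed microglia-like (1773 cells), endothelial-like (902 and 60), astrocyte-like (877), oligodendrocyte-like (356), mural-like (163), choroid plexus-like (108) and OPC-like (102) clusters, a progenitor-like cluster (196) and 3 unnamed ones. The progenitor-like cluster carried 12 of 12 neuroblast or progenitor markers and also 11 of 11 neuron markers, and neurons formed a cluster of their own (95 cells) only at a finer resolution of 1. An unnamed cluster of 203 cells, called the mixed cluster here, had a median of 482 UMIs and markers of macrophages, ependymal cells and neutrophils. Between 11 and 17 of 3000 barcodes were shared by each pair of libraries, and 2 to 4 among the kept cells.

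To follow the cells that carried the signal, 18 of the 35 genes known to peak between S phase and mitosis were taken as the core (*Top2a*, *Mki67*, *Cdk1*, *Ccnb1*, *Ccnb2*, *Ccna2*, *Birc5*, *Ube2c*, *Cenpf*, *Cenpe*, *Prc1*, *Tpx2*, *Nusap1*, *Rrm2*, *Tyms*, *Kif11*, *Kif23* and *2810417H13Rik*), and a cell with UMIs of at least 2 of them was counted as carrying the signal. Some facts on single barcodes precede the results. One male wild-type cell, the deepest of those with the signal (23856 UMIs, 6060 genes), held 590 UMIs of 17 core genes, 58.3% of the core UMIs of its library and 27.6% of those of all 4. In the same library 11 further barcodes differed from its barcode by 1 base, and all 11 held core UMIs. Of these, 6 passed the filters and all 6 carried the signal, with 261 to 1721 UMIs each and 148 core UMIs together. In the female wild-type library a barcode of 229 UMIs with the signal lay 1 base from a cell of 7837 UMIs that held 203 core UMIs, and 0 of 1532 kept male Tg2576 barcodes lay 1 base from one at least 2 times as deep. Whether such pairs are 1 cell was not tested. The CPM of single genes by library include these barcodes. The ratios, calls and orders of libraries that change when the male wild-type ones are left out are given both ways.

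The stretches before the starts of *Top2a* and *Mki67* (the leading genes of the spindle group), *Cdk1* (mitotic kinase), *Pcna* (the sliding clamp of replication) and *Mcm6* (helicase) are printed as examples of the letters that members share, 250 bases up to the start as listed by RefSeq on GRCm38.p6, each on the minus strand and read 5′ to 3′. Capitals mark CCAAT (the letters of the NF-Y box), TTTGAA (those of the cell cycle homology region) and TTTGGCGC and TTTCGCGC (those of E2F sites), on either strand. The 5 genes were chosen after their values and letters had been seen.
Top2a, chr11:99024190-99024439: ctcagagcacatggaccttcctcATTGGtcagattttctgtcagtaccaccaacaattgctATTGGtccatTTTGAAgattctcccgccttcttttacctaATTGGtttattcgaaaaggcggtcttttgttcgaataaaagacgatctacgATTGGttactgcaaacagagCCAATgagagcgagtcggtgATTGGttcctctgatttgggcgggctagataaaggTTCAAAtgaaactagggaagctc
Mki67, chr7:135716380-135716629: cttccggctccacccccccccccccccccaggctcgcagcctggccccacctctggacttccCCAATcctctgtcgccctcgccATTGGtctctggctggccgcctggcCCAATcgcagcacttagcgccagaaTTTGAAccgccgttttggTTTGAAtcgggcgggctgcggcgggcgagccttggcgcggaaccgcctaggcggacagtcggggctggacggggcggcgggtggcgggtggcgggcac
Cdk1, chr10:69352913-69353162: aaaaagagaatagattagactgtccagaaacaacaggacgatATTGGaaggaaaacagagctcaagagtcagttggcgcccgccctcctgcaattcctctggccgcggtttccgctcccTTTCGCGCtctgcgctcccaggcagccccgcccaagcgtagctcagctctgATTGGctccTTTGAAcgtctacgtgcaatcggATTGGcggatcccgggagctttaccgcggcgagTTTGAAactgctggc
Pcna, chr2:132253181-132253430: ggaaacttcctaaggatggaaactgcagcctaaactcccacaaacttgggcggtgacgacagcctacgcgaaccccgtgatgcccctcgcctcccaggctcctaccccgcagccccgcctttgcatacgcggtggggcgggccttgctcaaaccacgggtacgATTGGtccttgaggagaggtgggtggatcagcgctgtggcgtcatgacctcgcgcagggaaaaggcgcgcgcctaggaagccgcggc
Mcm6, chr1:128359706-128359955: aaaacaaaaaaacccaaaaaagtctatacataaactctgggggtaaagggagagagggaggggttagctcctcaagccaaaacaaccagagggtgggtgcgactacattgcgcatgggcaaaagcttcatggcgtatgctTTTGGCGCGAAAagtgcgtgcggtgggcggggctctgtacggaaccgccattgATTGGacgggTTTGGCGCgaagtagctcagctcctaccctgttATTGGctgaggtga

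Of the 35 members, 28 had an entry in that table (*2810417H13Rik* under its newer symbol *Pclaf*). CCAAT was present before the start of 25 of the 28 (89.3%), against 37.5% of the 27025 genes of the table. TTTGAA was present in 11 of 28 members (39.3%), against 18.3% of all genes, and overlapped a CCAAT in 0 members. TTTGGCGC was found in 2 members (*Mcm5* and *Mcm6*) and TTTCGCGC in 3 (*Cdk1*, *Mcm5* and *Mcm6*), against 0.485% and 0.3% of all genes, and the letters of both overlap in one stretch of *Mcm6*. The stretch of *Top2a* held 6 copies of CCAAT, the most among the 5 printed, and that of *Pcna* held 1. These matches describe letters and no binding was measured.

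The 35 genes together had 8614 UMIs in kept cells, from 19 of *Mcm5* to 1207 of *Ccnd2*, and the 18 core genes had 2138 of them. The core UMIs lay in few cells: 56 of 4835 barcodes (1.16%, exact Clopper-Pearson 95% interval 0.876 to 1.5) carried the signal, and they held 87.7% of all core UMIs. In females the number was 13 (1.25%, 0.665 to 2.12) in wild-type and 9 (0.721%, 0.330 to 1.36) in Tg2576 cells, and in males it was 20 (1.98%, 1.21 to 3.04) and 14 (0.914%, 0.500 to 1.53). In each sex the share was lower in the Tg2576 library. The log2 ratio of the shares, with an interval of counting error, was -0.79 (-2.20 to 0.55) in females and -1.12 (-2.21 to -0.06) in males, and the male ratio was -0.50 without the deepest cell and the barcodes 1 base from it, with an interval that held 0 (-1.70 to 0.70). Without barcodes 1 base from a deeper one the counts were 12, 9, 14 and 14, which is 1.17%, 0.732%, 1.43% and 0.914%. Cells with the signal were deeper than the rest, with a median of 2260.5 against 1102 UMIs. Thinned to 500 UMIs each, 29 of 4131 cells carried it (5, 8, 10 and 6), with 704 shallower cells left out (95, 189, 117 and 303). At this equal depth the shares were 0.527% and 0.755% in females and 1.12% and 0.488% in males, wild-type first, so the order of the females was turned. All of *Ube2c* and *Ccnb1*, 97.8% of *Mki67* and 95.1% of *Top2a* UMIs lay in the 56 cells, whereas *Ccnd3* had 0.935%, *Ccnd1* 7.51% and *Pcna* 14.0% there. *Ube2c*, *Ccnb1*, *Mki67* and *Top2a* are core genes and took part in choosing these cells, while *Ccnd3*, *Ccnd1* and *Pcna* did not. The high shares of core genes in the 56 cells, the 87.7% included, are thus in part set by that choice.

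**Figure D1:**
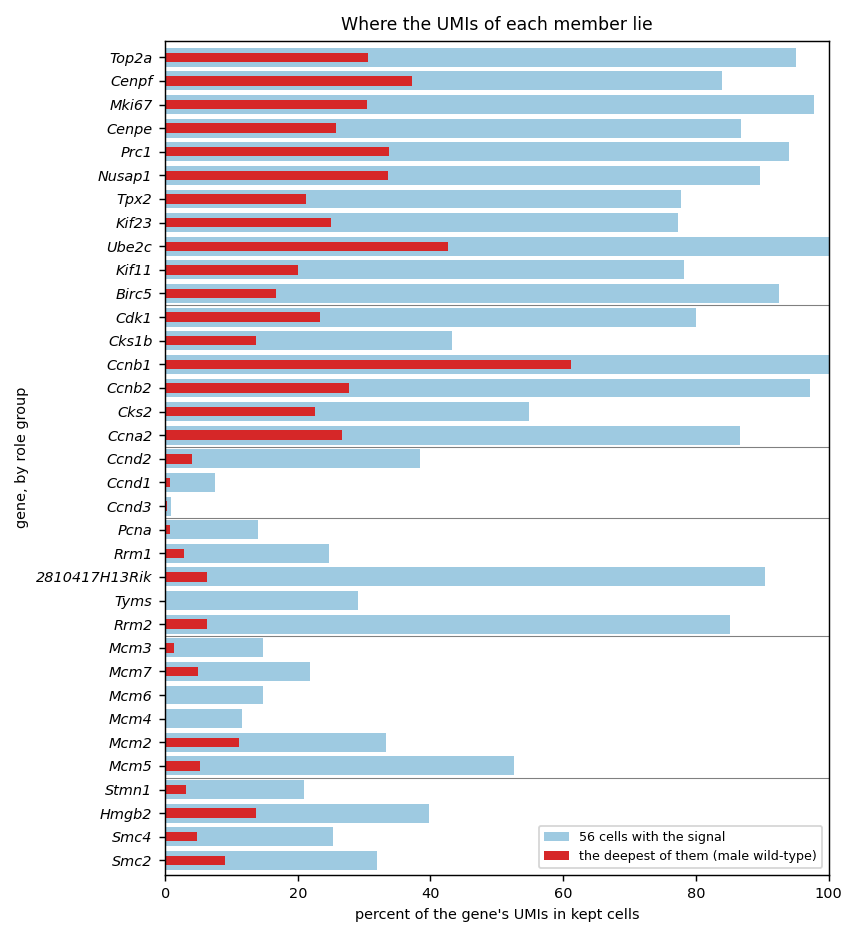
Percent of each gene's UMIs (x axis) that lay in the 56 cells with the signal (blue bars) and in the deepest of them, a male wild-type cell (red bars), with the 35 genes on the y axis by role group. Spindle genes sit at 77.4% or more in the 56 cells, *Ccnd3* near 0, and the single cell holds 61.1% of *Ccnb1* and 30.5% of *Top2a*. The spindle genes are core genes that chose the 56 cells, so their high shares are in part set by that choice.

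The progenitor-like cluster held the most of these cells, 22 of 196 (11.2%, 7.17 to 16.5), and 64.4% of all core UMIs. The mixed cluster had 13 of 203 (6.40%), of which 6 were barcodes 1 base from a deeper one. Another of the 13 had 1190 UMIs over 1173 genes, and a further barcode, a doublet call, had 902 UMIs over 891 genes. Each of these held a few UMIs of markers of several cell types. Microglia-like cells followed with 9 of 1773 (0.508%, 0.232 to 0.961), none of them near a deeper barcode, and each of the 9 held 9 to 88 UMIs of microglia markers. Oligodendrocyte-like cells had 4 of 356, all in the male Tg2576 library, and the doublet caller Scrublet marked all 4. The remaining 8 lay in endothelial-like (2), astrocyte-like (2), OPC-like (2), mural-like (1) and choroid plexus-like (1) cells. Neurons, a cell type that does not divide, served for comparison. They had been split from the progenitor-like cluster at resolution 1, and free RNA was not measured. They had 0 of 95 cells with the signal, which allows a share of up to 3.16%, and 5.26% of them had a UMI of at least 1 core gene, against 5.41% of microglia-like and 18.9% of progenitor-like cells (medians of 766, 1196 and 1055 UMIs). A single core gene was thus found at a similar share in microglia-like cells and in the shallower neurons. At resolution 1 all 22 cells fell in a progenitor cluster of 101 cells (21.8%, 14.2 to 31.1), with 4 of 20 wild-type and 4 of 27 Tg2576 cells in females and 10 of 25 and 4 of 29 in males. The shares were 20%, 14.8%, 40% and 13.8%, and the log2 ratio of Tg2576 over wild-type was -0.43 (-2.86 to 1.99) in females and -1.54 (-3.66 to 0.26) in males. In the progenitor-like cluster of the main clustering, where neurons were not set apart, 4 of 33 and 4 of 63 cells carried the signal in females (-0.93, -3.36 to 1.49) and 10 of 29 and 4 of 71 in males (-2.61, -4.74 to -0.82), wild-type first. Without the deepest cell and its near barcodes the male ratio was -2.39 (-4.58 to -0.49) there and -1.33 (-3.52 to 0.57) at resolution 1.

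**Figure D2:**
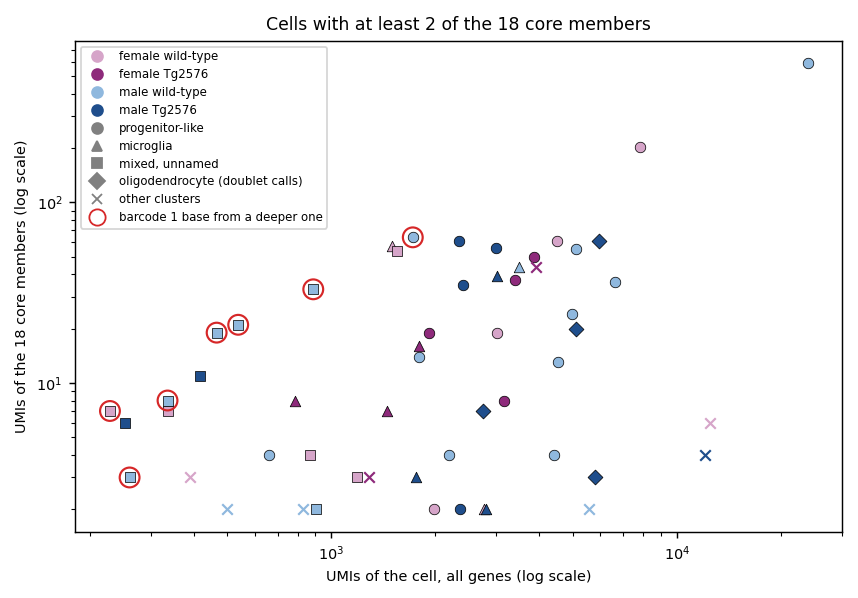
Each of the 56 barcodes with the signal by its UMIs of all genes (x axis, log scale) and of the 18 core genes (y axis, log scale), coloured by library and shaped by cluster, with red rings for barcodes 1 base from a deeper one. The male wild-type cell with 590 core UMIs and the female wild-type cell with 203 stand above the rest, which hold 64 or fewer.

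Genes of S phase to mitosis that are not among the 35, and so took no part in choosing the cells, gave a second view of them. This list of 84 genes had 16575 CPM (UMIs scaled to a total of 1000000) in the 56 cells and 1559 in the other kept cells, a ratio of 10.6. By library, in the order given at the start, the ratio was 9.77, 10.1, 12.2 and 8.53, so it was of similar size in all 4. By cell type the ratio was uneven. It was 8.67 in the progenitor-like, 12.2 in the mixed, 5.24 in the oligodendrocyte-like and 4.85 in the OPC-like cluster, but 1.72 in the astrocyte-like, 1.12 in the larger endothelial-like, 1.00 in the mural-like and 0.953 in the choroid plexus-like cells, each from 1 or 2 cells with the signal. In the 9 microglia-like cells it was 10.6, with 14979 against 1413 CPM, though 3 of the 9 held 4, 1 and 5 UMIs of the list among 2773, 1760 and 2808 UMIs and the other 6 held 9 to 79. The 79 UMIs, of 290 in these cells, were in the male wild-type cell that was low in microglia markers. The members of the list with the most UMIs in the 56 cells were *Tubb5*, a tubulin (255 UMIs), *Nasp*, a histone chaperone (224), and *Dek*, a chromatin protein (215). *Nasp* was found in 58.9% of the 56 cells and in 9.92% of the others.

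Spindle, kinetochore and chromosome genes had 1724 UMIs, of which 65.6% lay in the progenitor-like cluster. *Top2a*, the topoisomerase that untangles sister chromatids, had 60.9 and 26.2 CPM in wild-type and Tg2576 females and 114 and 22.7 CPM in wild-type and Tg2576 males, and 70.8% of its UMIs lay in the progenitor-like cluster. *Mki67*, a chromosome surface protein used as a marker of dividing cells, had 45.2, 18.7, 78.8 and 21.0 CPM in the same order. *Cenpf*, a kinetochore protein, had 36.4, 23.7, 92.1 and 22.2 CPM. In all 3 genes both Tg2576 libraries lay below both wild-type libraries, and the male wild-type library was the highest. Without the deepest cell and the barcodes 1 base from it the male wild-type level was 29.0 CPM for *Top2a*, 19.1 for *Mki67* and 14.2 for *Cenpf*, and only that of *Top2a* stayed above both Tg2576 libraries. Within the progenitor-like cluster *Top2a* had 1060, 256, 1888 and 224 CPM. Without those barcodes the male wild-type level there was 625 CPM, and the male log2 ratio went from -3.08 (-3.92 to -2.33) to -1.48 (-2.43 to -0.60). At resolution 1, with the neurons set apart, it went from -2.05 (-2.89 to -1.31) to -0.49 (-1.44 to 0.40). The other 8 genes of the group (*Birc5*, *Ube2c*, *Cenpe*, *Prc1*, *Tpx2*, *Nusap1*, *Kif11*, *Kif23*) had 54 to 190 UMIs each. In 3 of these 8 the genotypes overlapped: *Cenpe*, a kinetochore motor, had 22.0, 26.2, 48.5 and 18.8 CPM, *Birc5* 7.53, 1.87, 13.3 and 9.67, and *Ube2c* 4.39, 1.87, 23.6 and 6.82. Without the deepest cell and the barcodes 1 base from it, only *Tpx2* of the 8 had both Tg2576 libraries below both wild-type ones. Among all genes with at least 19 UMIs, 11.8% lay in that order with all barcodes and 11.4% without those.

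Mitotic cyclins, *Cdk1* and the Cks proteins were rare, with 237 UMIs for 6 genes. *Cdk1*, the kinase of mitosis, had 60 UMIs in 32 cells, with 8.16, 3.12, 15.1 and 9.67 CPM in the 4 libraries in the order above. Its female wild-type value lay below its male Tg2576 value, so the genotypes overlapped. *Ccnb1* and *Ccnb2*, the B-type cyclins that activate Cdk1, had 36 UMIs each. *Ccnb1* had 7, 2, 24 and 3 UMIs, and 22 of the 24 were in the deepest cell. *Ccnb2* had 9, 2, 18 and 7 UMIs, and its largest share in one cell was 10. *Cks1b*, a small Cdk-binding protein, had 4, 8, 18 and 14 UMIs, so the female Tg2576 library was above the female wild-type one. *Ccna2* and *Cks2* had 30 and 31 UMIs.

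The 3 D-type cyclins had 2434 UMIs and lay in different cell types. *Ccnd2*, the D-type cyclin of neural progenitors, had 209, 154, 270 and 103 CPM in the 4 libraries, and 64.9% of its 1207 UMIs lay in the progenitor-like cluster, where it had 3717, 1714, 3872 and 1104 CPM. Both Tg2576 libraries lay below both wild-type libraries in all kept cells and in that cluster, also without the deepest cell and its near barcodes, when the male wild-type levels were 240 and 4689 CPM. *Ccnd1* had 137, 123, 131 and 156 CPM, and 60.7% of its 906 UMIs lay in microglia-like cells, where its level was 216, 202, 251 and 270 CPM. Its highest level, 440 CPM, was in OPC-like cells, from 63 UMIs. *Ccnd3* was spread over cell types, with 51.5, 53.7, 51.5 and 38.7 CPM and 33.3% of 321 UMIs in microglia-like cells. *Ccnd1* and *Ccnd3* showed no common direction with genotype in the 2 sexes.

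**Figure D3:**
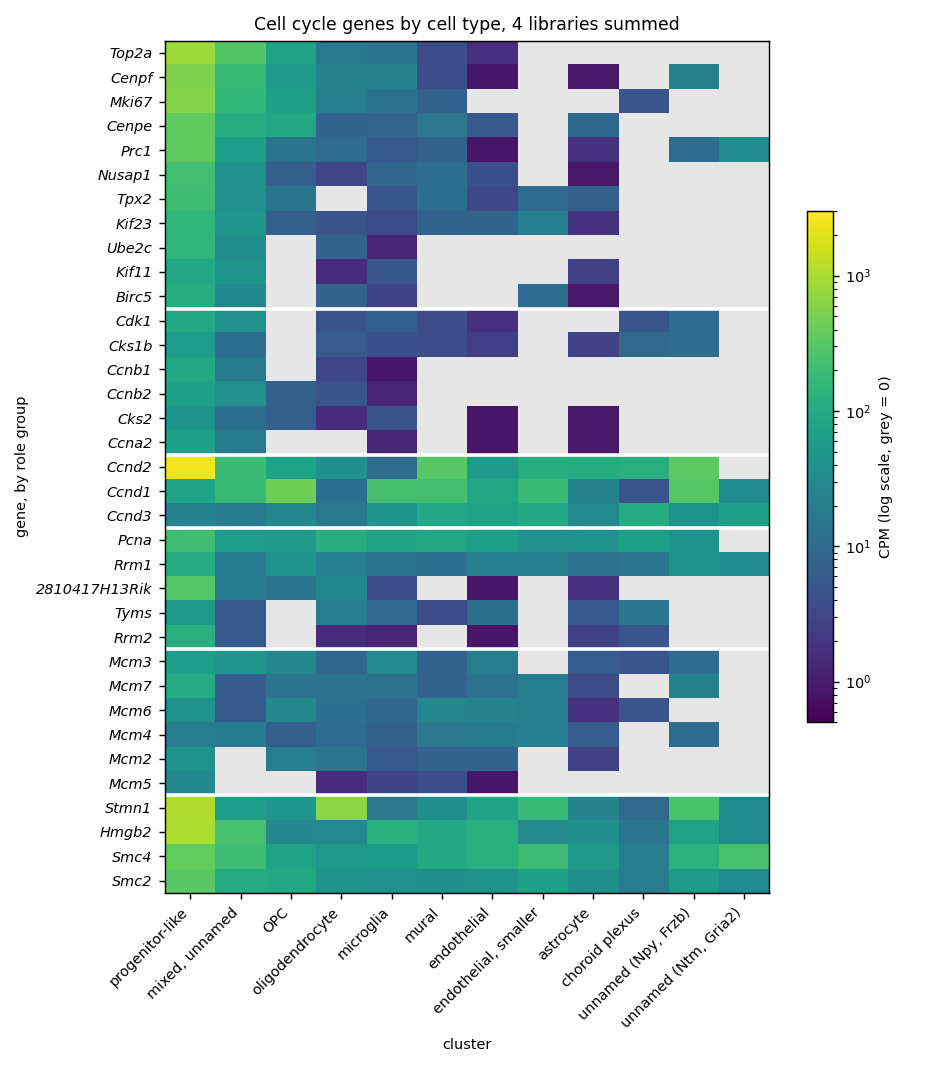
Level of each of the 35 genes (y axis, by role group) in each cluster (x axis), as CPM over the 4 libraries, on a log colour scale with grey for 0. The progenitor-like column is the brightest for most spindle and mitotic genes, *Ccnd1* is brighter in OPC-like, microglia-like and mural-like cells, and *Stmn1* is bright in progenitor-like (1055 CPM) and oligodendrocyte-like cells (664 CPM).

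DNA synthesis genes divided into broad and narrow ones. *Pcna*, the sliding clamp, had 56.5, 51.2, 108 and 85.9 CPM and was found in 401 cells, 34.7% of its 501 UMIs in microglia-like cells. Both male libraries lay above both female ones for this gene. *Rrm1*, the large subunit of ribonucleotide reductase, had 25.1, 16.2, 24.8 and 19.9 CPM, spread over progenitor-like (23.9% of UMIs), microglia-like (23.2%) and endothelial-like cells (17.6%). *2810417H13Rik*, which encodes a factor that binds the Pcna clamp, had 20.7, 11.2, 29.1 and 15.4 CPM, with 71.4% of its 126 UMIs in the progenitor-like cluster. For *Rrm1* and *2810417H13Rik* both Tg2576 libraries lay below both wild-type ones, with and without the deepest cell and its near barcodes. *Rrm2*, the small subunit, and *Tyms*, thymidylate synthase, had 47 and 79 UMIs. *Rrm2* had 85.1% of its UMIs in cells with the signal and *Tyms* 29.1%.

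The 6 subunits of the replicative helicase had 473 UMIs, from 19 to 142 each. *Mcm3* had 25.7, 21.9, 24.2 and 14.8 CPM, and 49.3% of its UMIs lay in microglia-like cells, of which 63 had a UMI. *Mcm7* had 15.1, 13.1, 21.2 and 11.9 CPM, with 31.7% in the progenitor-like and 30.7% in microglia-like cells. *Mcm6* had 13.8, 10.6, 13.9 and 14.8 CPM, with 31.8% in the larger endothelial-like cluster. For *Mcm3* and *Mcm7* both Tg2576 libraries lay below both wild-type ones, with and without those barcodes, and for *Mcm6* they did not. *Mcm2*, *Mcm4* and *Mcm5* had 54, 69 and 19 UMIs. The interval of the genotype ratio left out 0 for 1 helicase gene in 1 sex, *Mcm7* in males (-0.83, -1.68 to -0.0077), and held 0 there without those barcodes (-0.58, -1.47 to 0.28).

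Chromatin and cytoskeleton genes were found in many cells. *Stmn1*, which destabilises microtubules, had 131, 174, 164 and 134 CPM, with 44.1% of its 992 UMIs in oligodendrocyte-like and 32.8% in progenitor-like cells. *Hmgb2*, a chromatin protein, had 110, 99.4, 213 and 111 CPM, with 35.8% of 881 UMIs in progenitor-like and 31.2% in microglia-like cells. The male wild-type library stood apart for *Hmgb2*, and the deepest cell held 121 of its 351 UMIs. *Smc4*, a condensin subunit, had 81.6, 94.4, 107 and 82.5 CPM, spread over endothelial-like, microglia-like and progenitor-like cells. *Smc2*, its partner, had 376 UMIs.

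Between genotypes, the summed core genes had 314 CPM in wild-type and 165 in Tg2576 females, and 613 in wild-type and 206 in Tg2576 males. The log2 ratio of Tg2576 over wild-type was -0.93 in females (95% interval of counting error -1.15 to -0.71) and -1.57 in males (-1.75 to -1.40). In these whole libraries, fewer cells of a type and less RNA per cell cannot be told apart. Much of the male difference rested on 1 cell and the barcodes near its own. Without that cell the male ratio was -0.33 (-0.54 to -0.13), and without it and the barcodes 1 base from it the ratio was 0.29 (0.06 to 0.52), with the Tg2576 library higher. These settings left out male wild-type barcodes only, so the female ratio could not change. The male Tg2576 library kept all its barcodes there, among them 4 doublet calls with the signal. Its level of 206 CPM stood against 169 CPM in wild-type males without the deepest cell and its near barcodes. Without doublet calls the male Tg2576 level was 161 CPM. Leaving out doublet calls and those wild-type barcodes together was not computed. In the female wild-type library the top cell held 40.6% of the core UMIs. Without the cell of most core UMIs in each library the ratios were -0.48 (-0.74 to -0.22) in females and -0.60 (-0.81 to -0.38) in males. Outside the progenitor-like cluster they were -0.51 (-0.83 to -0.20) and -0.07 (-0.36 to 0.22), and in cells without the signal -0.02 (-0.51 to 0.47) and -0.50 (-1.05 to 0.04). In microglia-like cells they were -0.51 (-1.01 to -0.03) and -0.37 (-0.91 to 0.16). There 1 wild-type cell held 57 of the 95 wild-type core UMIs in females, and 1 held 44 of 66 in males. Microglia-like cells with the signal were 2 of 442 and 3 of 494 in females and 1 of 326 and 3 of 511 in males, wild-type first. The microglia-like ratios without those wild-type cells were not computed.

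**Figure D4:**
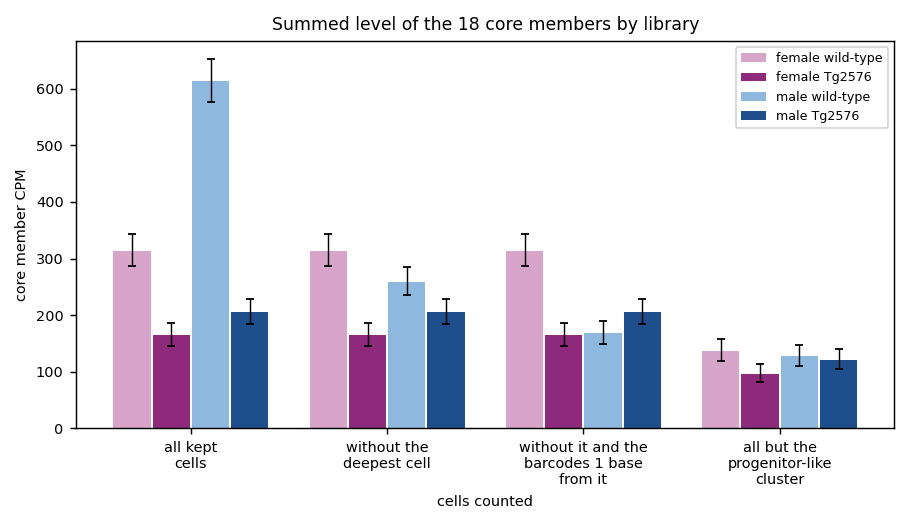
Summed level of the 18 core genes (y axis, CPM) in the 4 libraries (bars, with exact Poisson 95% intervals) when all kept cells are counted, without the deepest cell, without it and the barcodes 1 base from it, and without the progenitor-like cluster. The male wild-type bar is the highest at 613 with all cells and lies below the male Tg2576 bar at 169 without the cell and its near barcodes. The settings that leave out single barcodes drop male wild-type ones only, so the female bars and the male Tg2576 bar could not change there.

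Gene by gene, 9 of the 35 had a counting interval below 0 in females and 1 above (*Stmn1*), with a median log2 ratio of -0.42, and 20 had one below 0 in males and 0 above, with a median of -0.86. These counts rest on counting error alone, so each is set beside the share of the 14909 genes with at least 19 UMIs, the number of the rarest member: 7.16% had an interval below 0 and 8.75% above in females, and 6.26% and 8.29% in males. Without the deepest cell and the barcodes 1 base from it, 1 gene had a male interval below 0 (*Ccnd2*, -1.21) and 3 above (*Prc1* 2.25, *Cdk1* 1.97, *Ccnd1* 0.27), against 5.75% and 8.13% of those genes, and the median over the core genes was 0.63. Both Tg2576 libraries lay below both wild-type libraries in 19 of the 35 genes and above in 1 (*Tyms*), against 11.8% and 16.7% of the same genes. Without those barcodes it was 8 below (*2810417H13Rik*, *Ccnd2*, *Mcm3*, *Mcm5*, *Mcm7*, *Rrm1*, *Top2a* and *Tpx2*) and 2 above (*Mcm2* and *Tyms*), against 11.4% and 17.1%. For *Top2a* the ratio was -1.21 in females, -2.32 in males and -0.35 (-0.99 to 0.29) in males without those barcodes. For *Mki67* it was -1.27, -1.90 and 0.14 (-0.59 to 0.88). For *Ccnd2* it was -0.44 (-0.69 to -0.20), -1.39 (-1.64 to -1.13) and -1.21 (-1.47 to -0.95). *Ccnd2* thus kept its direction in all 3 sets, and *Mki67* did not. The barcodes left out here are all male wild-type. The female wild-type cell with 203 core UMIs held 40 of the 97 *Top2a*, 33 of the 72 *Mki67* and 20 of the 333 *Ccnd2* UMIs of its library. The female ratios and the orders of libraries in this paragraph keep that cell.

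**Figure D5:**
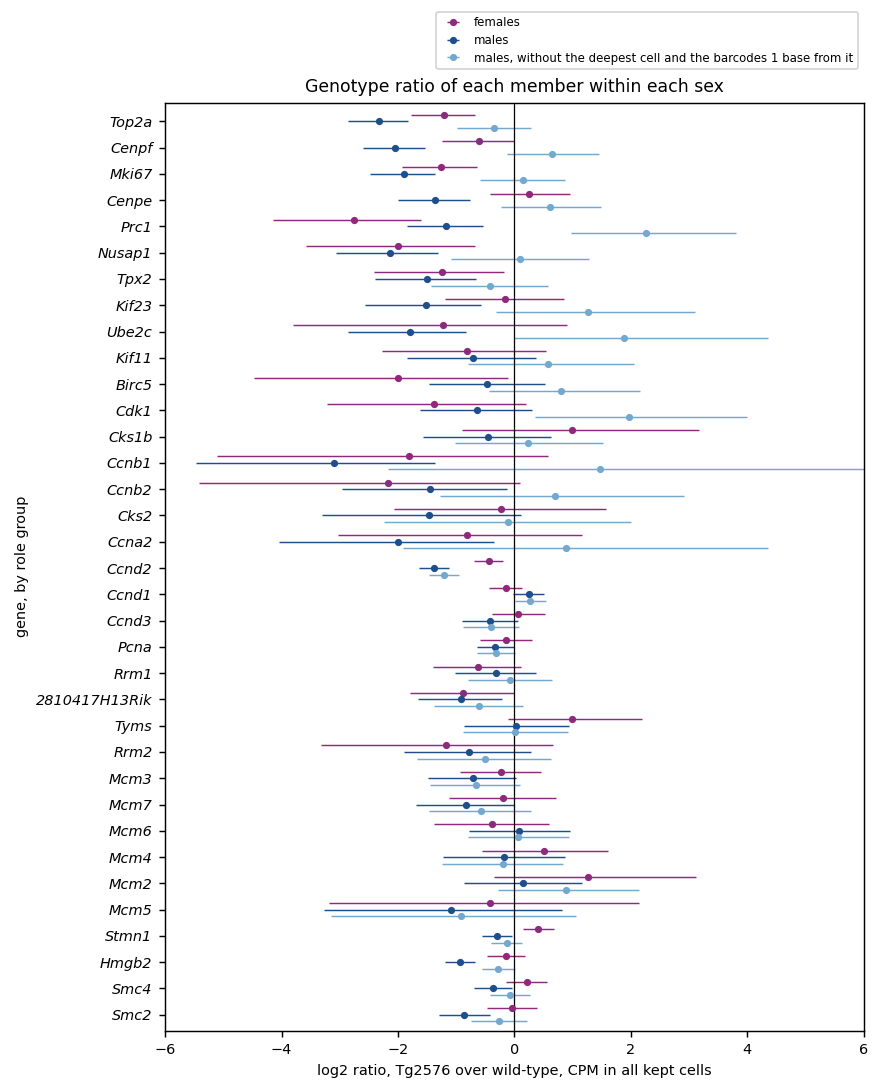
Log2 ratio of Tg2576 over wild-type (x axis, CPM in all kept cells, bars are 95% counting intervals) for each of the 35 genes (y axis, by role group) in females, in males, and in males without the deepest cell and the barcodes 1 base from it. Most spindle genes move from below 0 to near or above 0 in males once those barcodes are left out, and *Ccnd2* stays below 0 in all 3 sets, while the interval of *Ccnb1* in males without those barcodes runs past the right edge.

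With edgeR, the difference between genotypes common to females and males was tested on UMIs summed over all kept cells, with sex as a covariate and 1 residual degree of freedom. Of the 35 genes 30 passed the filter on low counts (*Ccna2*, *Ccnb1*, *Ccnb2*, *Cks2* and *Mcm5* did not), and 7 were called at an adjusted p under 0.05, all lower in Tg2576. Over all 12736 genes tested, 0.832% were called, 0.463% as lower. The 7 were *Top2a* (log2 fold change -1.85 ± 0.22 SE, adjusted p = 2.9e-13 by edgeR), *Mki67* (-1.67 ± 0.24, 7.5e-09), *Cenpf* (-1.47 ± 0.24, 6.6e-07), *Ccnd2* (-0.96 ± 0.17, 9.0e-06), *Prc1* (-1.75 ± 0.33, 4.9e-05), *Nusap1* (-2.13 ± 0.40, 5.6e-05) and *Tpx2* (-1.43 ± 0.39, 0.033). *Prc1* and *Nusap1* bundle spindle microtubules and *Tpx2* starts their assembly. An unadjusted p under 0.05 was reached by 13 of the genes, against 8.11% of all genes, and the median log2 fold change of the 30 was -0.63, against -0.01 for all genes.

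These calls depended on the barcodes described above and on the tool. Without the deepest cell edgeR called 2 of the genes (*Ccnd2* and *Top2a*, with 0.747% of all genes called), and without it and the barcodes 1 base from it 1 (*Ccnd2*, log2 fold change -0.87 ± 0.17, edgeR adjusted p = 0.0038, with 0.448% called). Without all barcodes 1 base from a deeper one, but with the deepest cell kept, it called 5, with 0.244% of all genes called. DESeq2, run only with no barcode left out, called 0 of the 35, with 6 at an unadjusted p under 0.05, against 0.015% and 0.479% of all genes. Over 16 alternatives *Ccnd2* and *Top2a* were each called in 12, with adjusted p up to 1.00 and 0.69. The alternatives with all 2500 variable genes, resolution 0.06 and resolution 1 changed the clusters only. Their calls over all kept cells could not differ from the main ones, so they add no support. Outside the progenitor-like cluster edgeR called 0 of 21 genes tested, with 4 at an unadjusted p under 0.05, 3 of them lower in Tg2576, against 0.0807% and 7.19% of all genes, and *Ccnd2* had -0.42 ± 0.18.

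Within the progenitor-like cluster edgeR tested 17 of the 35 genes and called 0, as it called 0% of the 1776 genes tested there, and 11 had an unadjusted p under 0.05, all lower in Tg2576, against 12.8% of all genes. Without barcodes 1 base from a deeper one edgeR called 9 of 17 there, all lower in Tg2576 (lowest adjusted p = 6.6e-06), with 5.75% of 1755 genes called. This setting kept the deepest cell, and the cluster had 747 core UMIs in wild-type and 157 in Tg2576 males. Without the deepest cell and the barcodes 1 base from it, edgeR called 0 of 12, with 0% of 1461 genes called and 3 at an unadjusted p under 0.05. DESeq2, run only with all these barcodes kept, called 2 of the genes in this cluster (*Top2a* -2.44 and *Ccnd2* -1.34, with 1.35% of all genes called). The mean of this cluster moved with its makeup: neuron markers had 7467, 24448, 3908 and 20134 CPM in it in the order of libraries above, and progenitor markers 9805, 6165, 8297 and 7391, so neuron markers were higher in both Tg2576 libraries. At resolution 1, where 13, 36, 4 and 42 neurons were set apart, *Ccnd2* in the progenitor cluster had 5075 and 3722 CPM in females (log2 ratio -0.45, -0.75 to -0.15) and 4083 and 2313 in males (-0.82, -1.20 to -0.46), wild-type first. The ratio of the core genes there was -1.30 (-1.62 to -0.98) in females and -1.14 (-1.39 to -0.89) in males, and 0.66 (0.33 to 0.99) in males without the deepest cell and its near barcodes. edgeR did not call *Ccnd2* in that cluster (-0.68 ± 0.37, adjusted p = 0.79).

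In the other cell types no member was called by edgeR, and DESeq2 also called 0 of them in each, with 0 at an unadjusted p under 0.05. In microglia-like cells edgeR tested 8, called 0 and found 0 at an unadjusted p under 0.05, against 0.174% and 8.28% of all genes. In the larger endothelial-like cluster it tested 8, called 0 and found 1 at an unadjusted p under 0.05 (*Ccnd2*), against 0.055% and 5.77%. Astrocyte-like (6 tested), oligodendrocyte-like (2), mural-like (2) and OPC-like cells (1) had 0 called and 0 at an unadjusted p under 0.05, against 0.157% and 6.77% over these 4 types. Most core genes had too few UMIs in these types to be tested, so a difference was not detectable at this depth.

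Genes of the cycle outside the 35 were tested in the same fits. Over all kept cells edgeR called 0.832% of all genes tested, and 8.11% had an unadjusted p under 0.05. Of the 84 genes of S phase to mitosis 45 were tested in all kept cells and 1 was called, *Ckap2l*, a spindle protein, at a log2 fold change of -1.35 ± 0.38 (edgeR adjusted p = 0.048, with 29, 11, 42 and 19 UMIs in the 4 libraries), and their median was -0.43. Of 33 regulators (kinases, their inhibitors, pocket proteins and E2F factors) 26 were tested there, 0 were called by edgeR or DESeq2, 2 had an unadjusted p under 0.05 by edgeR and their median was -0.03. In mural-like cells 1 of 7 regulators tested was called, the stress gene *Gadd45g*, at -2.19 ± 0.53 (edgeR adjusted p = 0.014), with 29 and 26 UMIs in the wild-type libraries of females and males and 2 and 9 in the Tg2576 libraries. Of all genes tested in mural-like cells edgeR called 0.268%. DESeq2 called neither *Ckap2l* nor *Gadd45g*.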

How the data were processed

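The files deposited by the authors hold raw UMI counts, 1 row per gene symbol and 1 column for each of 3000 barcodes, for 4 libraries. The submitters' processing notes name Seurat 3.1.4 and mm10 with no role given, and the aligner is not given in the sources used here. The 35 genes and all lists were chosen with earlier results of these data known.

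Barcodes with 200 to 7000 genes and at most 20% mitochondrial UMIs were kept. Clusters came from Seurat 5.3.0 with sctransform 0.4.2 (R 4.3.3; 19 principal components, resolution 0.5), with the 35 genes and both further lists of cell cycle genes left out, and no doublets were removed. Names required 3 or more markers of a cell type, each with 3 or more UMIs in the cluster and a level 2 or more times that of the remaining cells. After the clusters had been seen it was added that the leading list had to reach 50% of its genes. It was also added then that a cluster with 3 or more further lists stayed unnamed. The larger endothelial-like cluster, which is led by haemoglobin genes, was compared alone, which was likewise decided then. The neurons of resolution 1 were taken as background because resolution 0.5 gave no neuron cluster.

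UMIs summed per library and cell type were tested with edgeR 4.0.16 (filterByExpr, TMM, quasi-likelihood F test, sex as covariate, Benjamini-Hochberg adjustment over all genes tested, threshold 0.05), after a trial on simulated counts. With 4 pooled libraries the p-values do not measure the spread between mice. They rest on the spread between these libraries, with 1 residual degree of freedom, and on dispersion estimates that edgeR shares across genes. DESeq2 1.42.0 and Scrublet (scanpy 1.11.5) served as alternatives. Levels are CPM with exact Poisson intervals, ratios have exact conditional binomial and shares exact Clopper-Pearson intervals (95%, scipy 1.17.1), and a count of 0 cells allows up to 3. Intervals cover counting error only. In each role group the 3 genes with the most UMIs were named with their values (ties included), and any gene that edgeR called. The alternatives that leave out single cells or barcodes 1 base from one at least 2 times as deep were chosen after seeing the data.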

Additional observations from a re-analysis of the deposited data

Results flagged for a closer look

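*Stmn1* had a higher level in the Tg2576 library of females (log2 ratio 0.41, 0.15 to 0.68) and a lower one in that of males (-0.30, -0.56 to -0.04), over all kept cells. It was singled out because the counting intervals of the 2 sexes lie on opposite sides of 0, and the difference between the sexes was not tested. In oligodendrocyte-like cells, which held 44.1% of its UMIs, it had 674 and 832 CPM in females and 624 and 534 in males, wild-type first.

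Among barcodes that did not pass the filters, 15 had UMIs of at least 2 core genes: 3 and 3 in the wild-type and Tg2576 libraries of females, and 9 and 0 in those of males. They were singled out because they lie outside every comparison and exceed the limit of 3 that a count of 0 allows. These barcodes outside the kept cells held 157 core UMIs with all others that were left out, against 2138 in kept cells.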

How the results depend on the processing

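Of 221 comparisons of a main result with an alternative, 175 were counted as unchanged and 46 were not. A share or log2 ratio counted as unchanged inside the main interval, and a number of genes or cells when close to the main one. Thus 5 or 9 members called in all kept cells in place of 7 counted as unchanged. Some comparisons, here and for single genes below, could not change. Clusters do not enter values of all kept cells, and leaving out only male barcodes does not alter female ratios. The causes were not tested. No replicate could be left out, since each sex and genotype had 1 library, and no paired analysis was possible because the pools carry no replicate numbers that pair them. With the percent of all genes called in parentheses, all kept cells gave 7 members called (0.832), against 2 (0.035) with a mitochondrial limit of 10%, 1 (0.0628) with no sex covariate, 0 (0.015) with DESeq2, 2 (0.747) without the deepest cell, 1 (0.448) without it and the barcodes 1 base from it, 1 (0.638) without the top cell of each library and 0 (0.0807) without the progenitor-like cluster. The progenitor-like cluster gave 0 (0), against 5 (1.99) with a limit of 10%, 1 (0.108) with no limit, 2 (0.69) with at least 500 genes, 1 (0.11) at resolution 1, 5 (0.295) with no filter on low counts, 2 (1.35) with DESeq2 and 9 (5.75) without barcodes 1 base from a deeper one. The larger endothelial-like cluster gave 0 (0.055), and 1 (0.482) with doublets left out. The 56 cells with the signal became 28 at a limit of 5%, 292 with at least 1 core gene and 29 after thinning, and the 39.3% of them in the progenitor-like cluster became 53.6%, 12.7% and 58.6%, and 53.5% with at least 500 genes. This share could not be given with all 2500 variable genes, at resolution 0.06 or with doublets left out, where no such cluster was named. The share of cells in the 4 libraries was 7.57%, 5.68%, 8.22% and 3.85% with at least 1 core gene, 0.527%, 1.12% and 0.488% after thinning (female wild-type, male wild-type and male Tg2576), and 2.16% in the female wild-type at a limit of 5%.

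The core ratio of -0.93 in females became -1.87 at a limit of 5%, -1.19 at 10%, -0.58 after thinning, -0.48 without the top cell of each library and -0.51 without the progenitor-like cluster. In males -1.57 became -1.99 at a limit of 5%, -1.96 with doublets left out, -0.33 without the deepest cell, 0.29 without it and its near barcodes, -1.37 without all near barcodes, -0.60 without the top cell of each library and -0.071 without the progenitor-like cluster. The level of the 84 other genes in cells with the signal went from 10.6 times that of the rest to 9.75, 9.51 and 9.46 in the 3 settings that leave out single cells, in the same order, and to 6.18 without the progenitor-like cluster.

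Of 808 values of single genes under an alternative, 694 were counted as kept, 45 lost the threshold, 50 moved and 19 changed direction. A log2 ratio inside the main interval counted as kept whatever its sign. It counted as a change of direction only where the main interval left out 0. *Cdk1* in males, with 9.67 CPM in Tg2576 and 15.1 in wild-type, reached 1.97 without the deepest cell and its near barcodes and is not among the 19. Without the deepest cell *Ccnb1* in males became 0.47 and *Prc1* 0.93. Without it and its near barcodes the male values were *Ccnb1* 1.47, *Ccnb2* 0.69, *Cenpf* 0.65, *Mki67* 0.14, *Nusap1* 0.090 and *Prc1* 2.25, and *Prc1* was 0.63 without the top cell of each library. Without the progenitor-like cluster *2810417H13Rik* became 0.29 in females and 1.56 in males, *Tpx2* 0.026 in females, and in males *Ccnb1* 1.48, *Prc1* 0.89 and *Stmn1* 0.12. Thinning gave *2810417H13Rik* 0.16 in females and, in males, *Stmn1* 0.13 and *Tpx2* 0.025, and a limit of 5% gave *Stmn1* -0.81 in females. Depth limits the rest: 5 genes had too few UMIs to be tested in all kept cells, and 18 in the progenitor-like cluster.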
